A study of Mus musculus with 14 samples.

Results

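A total of 10 genes of follicular regulatory T (Tfr) cells, Bcl6, Ascl2, Tcf7, Maf, Tox, Tox2, Cxcr5, Pdcd1, Sh2d1a and Sostdc1, were followed in RNA-seq libraries of mouse regulatory T cells (Tregs) with and without JunB, a transcription factor of the AP-1 family. The genes were chosen by name, with earlier results of these data known. They were found by Ensembl gene ID among the 53801 genes listed for mice with constitutive JunB loss and the 55487 listed for mice with induced loss. All 10 were found in both tables.

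Tfr cells are Foxp3+ T cells that enter the B cell follicle and restrain the germinal centre reaction. They share a programme with follicular helper T (Tfh) cells, in which the repressor Bcl6 directs the follicular state, the chemokine receptor CXCR5 guides cells towards the follicle, and PD-1 and SLAM-family receptors act in contacts between T and B cells. Peyer's patches (PP) are gut lymphoid organs with ongoing germinal centre reactions, whereas the colon lamina propria holds effector Tregs that face the microbiota.

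Constitutive loss was studied in untreated male mice, with 2 PP Treg libraries of JunB F/+ Foxp3YFPcre controls (HET) and 2 of JunB F/F Foxp3YFPcre mice (KO). The cells were sorted as CD4+Foxp3(YFP)+ within a gate narrower than all Tregs. Induced loss was studied in JunB F/+ (iHET) or JunB F/F (iKO) mice with Foxp3ERT2cre and Rosa26-tdTomato, which received 8 mg of tamoxifen by gavage on days 0, 1 and 3 and were collected on day 7; TCRb+CD4+Foxp3(EGFP)+tdTomato+ cells came from the colon (3 iHET and 3 iKO) and, with a further CD25- gate, from PP (2 iHET and 2 iKO). In the inducible line replicate 1 of each group was a male with Foxp3ERT2cre+ and the others were females with Foxp3ERT2cre+/+, and the methods of the study give ages of 10 to 12 weeks for this line and generally of 8 to 12 weeks for the constitutive line. Every mouse carried a Foxp3-driven Cre, the controls had lost or could lose 1 JunB allele in the same cells, and levels were compared within a line only because line, sex, tamoxifen, gate and sequencing run differ between the lines.

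The 14 libraries held between 26274861 and 35508709 counts each, and levels are given as counts per 1e6 counts (CPM) after TMM normalization, with a floor of 3 counts between 0.0899 and 0.111 CPM. Junb, the targeted gene, was at 4752 and 5329 CPM in PP HET and 606 and 561 CPM in PP KO libraries. It was at 5547 and 4182 CPM in CD25- PP iHET, 891 and 911 CPM in CD25- PP iKO, 6865, 8471 and 7514 CPM in colon iHET and 1012, 993 and 1029 CPM in colon iKO libraries, so that no KO or iKO library overlapped a control. Defining markers of the sorted cells were present in all 14 libraries, with mean levels of Cd3e between 802 ± 14.7 (SD, n = 3, colon iKO) and 1182 ± 25.3 CPM (SD, n = 2, PP HET) and of Foxp3 between 68.8 ± 12.9 (SD, n = 2, CD25- PP iHET) and 137 ± 20.4 CPM (SD, n = 3, colon iHET). Il2ra, which encodes CD25, was at 197 ± 16.9 and 224 ± 21.7 CPM (SD, n = 2 each) in CD25- PP iHET and iKO and at 644 ± 97.8 and 692 ± 56.7 CPM (SD, n = 3 each) in the colon groups without that gate, so its RNA was lower but present after the CD25- gate.

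Levels of the 10 genes differed widely when set per kilobase of annotated exon. In PP HET Tregs Pdcd1 (349.9 ± 37.2 CPM per kb, SD, n = 2), the gene of the inhibitory receptor PD-1, and Tcf7 (309.7 ± 22.1), which encodes TCF-1, were the highest, followed by Tox2 (116 ± 13.8). Cxcr5 (58.9 ± 9.60), Sostdc1 (56.1 ± 16.8), Sh2d1a (44.4 ± 0.261), Tox (42.7 ± 2.48), Maf (39.1 ± 3.27) and Bcl6 (34.3 ± 3.48 CPM per kb) formed a middle group in which most neighbours differed by less than their spread, and Ascl2 was the lowest at 3.57 ± 0.576 CPM per kb. In CD25- PP iHET Tregs Tcf7 (557 ± 56.7 CPM per kb, SD, n = 2) stood above Pdcd1 (328 ± 78.3) and Tox2 (122 ± 24.5), followed by Sostdc1 (86.5 ± 0.152), with Ascl2 (5.09 ± 2.17 CPM per kb) the lowest. In colon iHET Tregs Pdcd1 (467 ± 123 CPM per kb, SD, n = 3), Tcf7 (177 ± 87.3) and Tox2 (115 ± 10.8) again led. Sh2d1a (7.82 ± 1.64), Sostdc1 (2.67 ± 0.348) and Ascl2 (0.737 ± 0.616 CPM per kb) were at the bottom there. The plot of levels by library shows the 10 genes in all 6 groups.

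**Figure D1:**
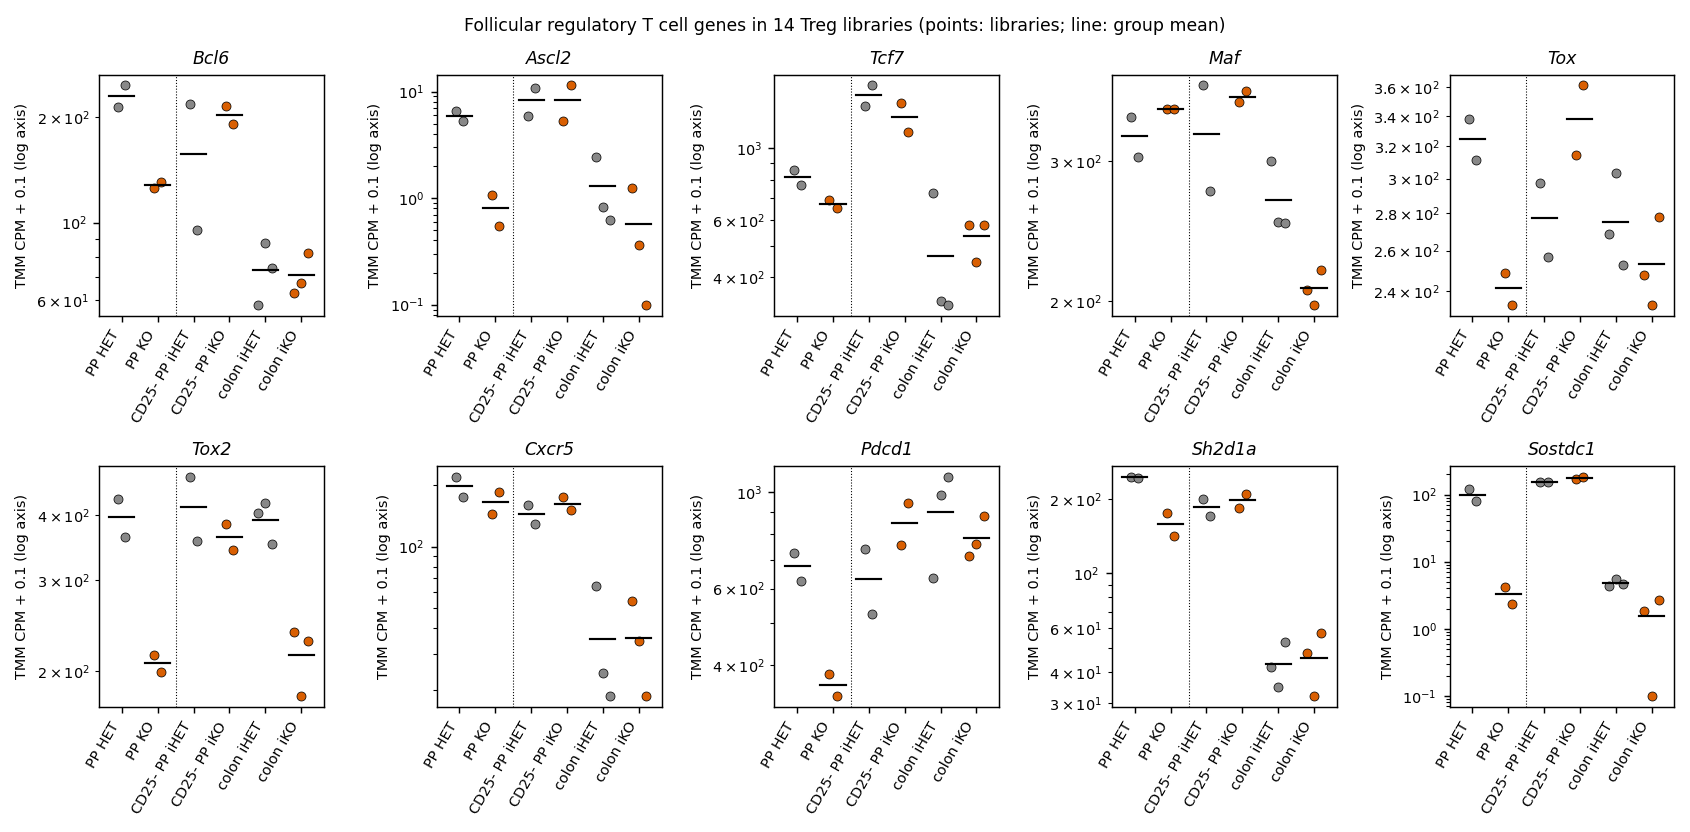
TMM-normalized CPM plus 0.1 (log axis, a separate range in each panel) of the 10 Tfr genes; each point is a library, each horizontal line a group mean, grey points are HET or iHET, orange points KO or iKO, and the dotted line separates the constitutive from the inducible line. Sostdc1 sits at 121 and 78.6 CPM in PP HET and 4.13 and 2.26 CPM in PP KO libraries, and at 170.1 and 183 CPM in CD25- PP iKO libraries.

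Promoter sequences are shown for 4 of the genes that were lower after constitutive loss, as JunB is a DNA-binding factor. Whether JunB binds or acts at these promoters was not tested. RefSeq promoters of GRCm38.p6 were matched for 5 of the 10 genes, with 11 start sites in all, and the 250 bases before each start were searched on both strands. The 5 motifs were TGANTCA and TGACGTCA (sites of AP-1), TTCNNNGAA (STAT factors), CAGCTG (an E-box) and CTTTGAT (TCF factors), and no letters can match TGANTCA and TGACGTCA from the same first base. Capitals mark a match, and each sequence reads 5′ to 3′ on the strand of its gene.
Bcl6, chr16:23988853-23989102, minus strand: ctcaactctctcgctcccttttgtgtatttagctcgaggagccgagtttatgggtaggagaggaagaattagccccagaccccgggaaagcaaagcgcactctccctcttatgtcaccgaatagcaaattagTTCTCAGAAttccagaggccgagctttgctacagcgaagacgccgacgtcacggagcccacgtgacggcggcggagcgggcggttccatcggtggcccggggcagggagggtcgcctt
Bcl6, second start, chr16:23981284-23981533, minus strand: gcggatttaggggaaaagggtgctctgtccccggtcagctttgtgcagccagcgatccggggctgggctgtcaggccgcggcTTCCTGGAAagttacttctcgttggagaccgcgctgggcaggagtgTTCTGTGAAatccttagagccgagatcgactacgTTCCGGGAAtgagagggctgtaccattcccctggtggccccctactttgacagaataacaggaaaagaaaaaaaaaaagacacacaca
Ascl2, chr7:142969265-142969514, minus strand: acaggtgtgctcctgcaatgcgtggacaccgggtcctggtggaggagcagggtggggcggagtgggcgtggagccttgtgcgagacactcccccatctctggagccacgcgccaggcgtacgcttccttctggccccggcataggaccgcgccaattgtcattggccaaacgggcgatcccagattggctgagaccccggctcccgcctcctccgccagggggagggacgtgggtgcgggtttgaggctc
Tox2, chr2:163202877-163203126, plus strand: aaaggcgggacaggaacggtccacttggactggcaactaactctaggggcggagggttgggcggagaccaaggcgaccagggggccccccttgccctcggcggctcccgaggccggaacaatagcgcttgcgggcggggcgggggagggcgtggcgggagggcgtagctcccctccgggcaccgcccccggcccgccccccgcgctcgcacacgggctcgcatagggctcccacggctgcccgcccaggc
Pdcd1, chr1:94052554-94052803, minus strand: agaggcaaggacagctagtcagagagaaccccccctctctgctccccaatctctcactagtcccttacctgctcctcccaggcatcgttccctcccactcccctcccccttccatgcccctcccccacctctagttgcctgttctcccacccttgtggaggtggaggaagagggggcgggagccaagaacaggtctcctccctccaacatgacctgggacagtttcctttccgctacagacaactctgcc
The letters TTCNNNGAA occur in both Bcl6 windows, 1 time in the first and 3 times in the second, and in 7.02% of all 32851 RefSeq promoters of this length. TGANTCA and TGACGTCA are in 0 of the 11 windows, against 6.75% and 1.55% of all promoters. CTTTGAT is in 2 further windows of Tox2 that start 1 base apart, against 3.21% of all promoters, and CAGCTG in 1 window of Tcf7, against 13% of all promoters. A match here is a description of the letters, and a missing match says only that these letters are not in this window.

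The first comparison asked how the Tfr genes stood in PP Tregs with constitutive JunB loss by Foxp3YFPcre. The study reports that this Cre was also active outside Tregs, so the onset of the loss in these cells is not known. Of the 10 genes, 7 were lower in KO than in HET Tregs past a false discovery rate (FDR) of 0.05, namely Bcl6, Ascl2, Tox, Tox2, Pdcd1, Sh2d1a and Sostdc1, while 2.36% of the 12224 genes tested were called lower. The study already reports lower Pdcd1, Bcl6 and Ascl2 in this comparison, and the 10 genes were chosen with earlier results known, so these counts are a description. Sostdc1 fell the most, 30.9-fold, Ascl2 fell 7.84-fold, and Bcl6, Tox2 and Pdcd1 each fell between 1.80-fold and 1.91-fold. Tcf7, Cxcr5 and Maf did not pass, and Maf was the one gene of the 10 with a higher mean in KO Tregs. In all 9 of the 10 were lower, beside 49.3% of all genes, and 8 were lower without overlap between the groups, beside 21.8%. The median log2 fold change of the 10 genes was -0.73, beside 0.0030 over all genes tested. In bulk RNA of sorted cells, fewer Tfr cells and less RNA per cell cannot be told apart. By flow cytometry the study reports that Bcl6+PD-1hi Tfr cells were nearly absent from PP of KO mice of this line.

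Among the transcription factors, Bcl6 (ENSMUSG00000022508.5; chr16:23965052-23988852 of GRCm38; 21 exon bases are shared with Gm37419 on the other strand), the repressor that directs the follicular state, reached 214 and 246 CPM with HET against 125 and 131 CPM with KO. The 2 groups did not overlap, and the change on the log2 scale was -0.84 ± 0.0908 (estimate ± standard error; adjusted p = 0.00449 in the quasi-likelihood test of edgeR, with Benjamini-Hochberg adjustment here and below). Ascl2 (ENSMUSG00000009248.6; chr7:142966829-142969264), a basic helix-loop-helix factor that can switch on Cxcr5 in T cells, reached 6.46 and 5.14 CPM with HET against 0.969 and 0.445 CPM with KO, from 200 and 141 counts and 27 and 12 counts. Its groups lay far apart at a low level, and its log2 fold change was -2.97 (edgeR adjusted p = 0.0132, standard error 0.436). Tox2 (ENSMUSG00000074607.11; chr2:163203125-163324170) and Tox (ENSMUSG00000041272.11; chr4:6686353-6991557; 260 exon bases are shared with Gm11802) encode related HMG-box factors that act in Tfh cells. Tox2 reached 429 and 363 CPM with HET against 215 and 199.5 CPM with KO, a change of -0.93 on the log2 scale (standard error 0.0999, edgeR adjusted p = 0.00449). Tox reached 338 and 311 CPM with HET against 249 and 233 CPM with KO, a smaller change of -0.43 (standard error 0.0820; edgeR adjusted p = 0.0325). In both genes each KO library lay below each HET library.

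Tcf7 (ENSMUSG00000000782.15; chr11:52252371-52283014), which encodes TCF-1, a factor that acts upstream of Bcl6 in Tfh cells, reached 854 and 772 CPM with HET against 691 and 652 CPM with KO. The groups did not overlap but the log2 fold change of -0.28 (95% interval -0.49 to -0.066) did not pass the FDR (edgeR adjusted p = 0.192; 0.0295 to 0.551 over the alternatives). Maf (ENSMUSG00000055435.6; chr8:115682942-115707794; 440 exon bases are shared with Gm15655), a leucine-zipper factor of Tfh cells and of gut Tregs, reached 342 and 304 CPM with HET against 349 and 349 CPM with KO, with a log2 fold change of 0.11 (95% interval -0.083 to 0.31, edgeR adjusted p = 0.660). Both KO libraries of Maf lay just above the HET libraries, opposite to the direction of the other 9 genes, without passing the test.

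Among the surface and signalling genes, Pdcd1 (ENSMUSG00000026285.7; chr1:94038305-94052553) reached 726 and 625 CPM with HET against 381 and 339 CPM with KO, without overlap, and its log2 fold change was -0.91 (standard error 0.104, edgeR adjusted p = 0.00620). Sh2d1a (ENSMUSG00000005696.11; chrX:42502453-42529330), which encodes SAP, the adaptor of SLAM-family receptors, reached 245 and 243 CPM with HET against 175 and 142 CPM with KO. Its log2 fold change was -0.62 (standard error 0.104, edgeR adjusted p = 0.0199); 1465 of its 5505 exon bases also belong to Tenm1 on the other strand, and the counting ignored strand. Cxcr5 (ENSMUSG00000047880.15; chr9:44511787-44561877; 110 exon bases are shared with Bcl9l) did not follow. It reached 219 and 174 CPM with HET against 144 and 185 CPM with KO, the groups overlapped, and the log2 fold change was -0.25 (95% interval -0.58 to 0.075, edgeR adjusted p = 0.513). Sostdc1 (ENSMUSG00000036169.6; chr12:36314139-36318452), a secreted antagonist of BMP and Wnt signals, reached 121 and 78.6 CPM with HET against 4.13 and 2.26 CPM with KO, or 3750 and 2159 against 115 and 61 counts. This was the largest change of the 10 genes, -4.95 on the log2 scale (edgeR adjusted p = 0.000606, standard error 0.305).

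With 2 libraries per group, single libraries mattered for some of these calls. Bcl6, Tox2 and Sostdc1 passed without each of the 4 libraries in turn, whereas the number of genes called fell from 7 to 3 without HET replicate 1, 4 without HET replicate 2, 6 without KO replicate 1 and 5 without KO replicate 2. Tox lost its call without any 1 of the 4 libraries (edgeR adjusted p = 0.0804 to 0.204). Sh2d1a lost it without HET replicate 1 (0.161), HET replicate 2 (0.112) or KO replicate 2 (edgeR adjusted p = 0.0706). Ascl2 lost it without HET replicate 1 (0.133) or 2 (edgeR adjusted p = 0.0665), and Pdcd1 without HET replicate 1 (edgeR adjusted p = 0.0521).

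Markers of B cells and of intestinal epithelium moved in the same direction as most of the Tfr genes in this comparison. The sum of 12 B cell genes was between 3051 and 3191 CPM in HET and between 2275 and 2837 CPM in KO libraries; all 12 were lower, 10 without overlap and 1 past the FDR, and 0 of them were at 0 in any of these libraries. The sum of 10 genes of intestinal epithelium was between 153 and 214 CPM in HET and between 56.1 and 62.1 CPM in KO libraries, with 10 of 10 lower, 9 of them past the FDR, and at most 1 of the 10 at 0 in a KO library. Of 6 germinal centre B cell genes tested 5 were lower and 0 passed by edgeR. Of 9 myeloid genes 9 were lower and 0 passed, and their sums overlapped, between 119 and 222 CPM in HET and between 122 and 175 CPM in KO libraries. The 5 genes of cytotoxic lymphocytes were mixed, with 3 lower, 1 of them past the FDR, and 2 higher, 1 of them at an unadjusted p under 0.05 by edgeR. Over all genes 49.3% were lower, 21.8% were lower without overlap and 2.36% were called lower. The part of these other cells in the change of the Tfr genes was not tested. Foxp3 went the other way, from 83.2 and 89.6 CPM with HET to 122 and 124 CPM with KO (log2 fold change 0.51, standard error 0.0816, edgeR adjusted p = 0.0167), and so did Il2ra, from 463 and 478 CPM with HET to 683 and 882 CPM with KO (log2 fold change 0.73, standard error 0.123, edgeR adjusted p = 0.0199).

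A list of 24 other genes of Tfh and Tfr cells was read in the same fit. Of the 23 that were tested, 8 were lower and 1 was higher in KO Tregs past the FDR, beside 2.36% and 0.99% of all genes. A negative log2 fold change was seen for 15, beside 49.3% of all genes, and the median was -0.33 beside 0.0030 over all genes. Those that fell past the FDR were Il21, the helper cytokine of germinal centres (-2.31, from 15.9 and 12.4 to 2.58 and 3.08 CPM), the transcription factor gene Cebpa (-1.89), and Pou2af1 (-1.58), a coactivator gene that B cells also express. They also included Il1r2 (-1.47), which encodes a decoy receptor of interleukin-1, Angptl2 (-1.19), and the surface protein genes Cd200 (-0.60) and Btla (-0.54). The last was Il6st (-0.60 on the log2 scale), which encodes the shared receptor chain of the interleukin-6 family. The edgeR adjusted p of these 8 genes lay between 0.00449 and 0.0187. Il4 was higher (0.65 on the log2 scale, standard error 0.113, edgeR adjusted p = 0.0235). Of 15 genes that oppose or leave the follicular programme, 2 were higher and 0 were lower past the FDR by edgeR, with 6 higher and 0 lower at an unadjusted p under 0.05, beside 0.99% called higher and 5.8% higher at that p among all genes. These 2 were Prdm1, whose product Blimp-1 represses Bcl6 (log2 fold change 0.38, standard error 0.0798, edgeR adjusted p = 0.0441), and Il2ra, given above.

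The second comparison asked whether the same genes changed in CD25- PP Tregs within 7 days of the first dose of tamoxifen. None passed: 0 of the 10 Tfr genes were called by edgeR, as were 0 by the exact test of the study and by DESeq2, and 0 had an unadjusted p under 0.05. Of all 17079 genes tested 0% passed the FDR and 3.62% had an unadjusted p under 0.05, and Junb itself, lower without overlap (log2 fold change -2.44, standard error 0.173), had an edgeR adjusted p of 0.0940. The 10 genes were spread around 0, with 3 lower (50.4% of all genes) and 7 higher in iKO Tregs and a median of 0.16 beside -0.0023 over all genes.

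Sostdc1 had the narrowest interval of them. It was at 154 and 154 CPM in iHET and 170.1 and 183 CPM in iKO libraries. Both iKO libraries were the higher ones, and the log2 fold change was 0.19 with a 95% interval of -0.094 to 0.47 (edgeR adjusted p = 0.999). Pdcd1 was at 739 and 525 CPM in iHET and 756 and 948 CPM in iKO libraries, with iKO again higher without overlap and an interval of the log2 fold change of -0.069 to 0.92. Tox, at 298 and 257 CPM in iHET and 315 and 361 CPM in iKO libraries, was the third gene without overlap, also higher (interval -0.066 to 0.62). Of all genes tested 16.5% were higher without overlap.

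For Bcl6 a single control library set the value. The iHET libraries were at 218 and 94.9 CPM and the iKO libraries at 215 and 191 CPM, so that iHET replicate 2 stood apart from the other 3. This library was also the lowest for Pdcd1 (525), Tox (257), Maf (275), Cxcr5 (128) and Sh2d1a (171 CPM), but not for Ascl2 or Tox2, and it was the highest for Tcf7 (1567 CPM). Without any 1 library the log2 fold change stayed between 0.19 and 0.70 for Pdcd1 and between 0.17 and 0.40 for Tox. The log2 fold change of Bcl6 was 0.37 (95% interval -0.49 to 1.23). It was -0.11 without iHET replicate 2, and 1.10 without iHET replicate 1, which leaves replicate 2 as the only control. Ascl2 varied as widely within groups, at 5.78 and 10.8 CPM in iHET and 5.17 and 11.3 CPM in iKO libraries, and here replicate 2 was the higher library of both genotypes (interval -1.13 to 1.09).

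The other 5 genes overlapped between genotypes. Tcf7 was at 1356 and 1567 CPM in iHET and 1379 and 1126 CPM in iKO libraries, and Tox2 at 474 and 357 CPM and 384 and 342 CPM. Both had negative log2 fold changes, of -0.23 for Tcf7 (interval -0.61 to 0.15) and -0.20 for Tox2 (interval -0.62 to 0.21). Maf was at 374 and 275 CPM in iHET and 356 and 367 CPM in iKO libraries, Cxcr5 at 160.1 and 128 CPM and 174 and 150.4 CPM, and Sh2d1a at 200.1 and 171 CPM and 184 and 209.9 CPM. Their log2 fold changes were 0.15, 0.16 and 0.079. Of the 24 other follicular genes 0 passed the FDR and 2 were higher at an unadjusted p under 0.05, Il1rn (1.35) and Batf (0.78 on the log2 scale), beside 1.72% of all genes, and of the 15 opposing genes 0 passed either threshold. The sum of the B cell genes was between 1106 and 1155 CPM in iHET and between 1323 and 1486 CPM in iKO libraries, and that of the epithelial genes between 197 and 402 CPM and between 165 and 224 CPM, with 10 of 12 higher and 9 of 10 lower and 0 called by edgeR in either list; their part was not tested.

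**Figure D2:**
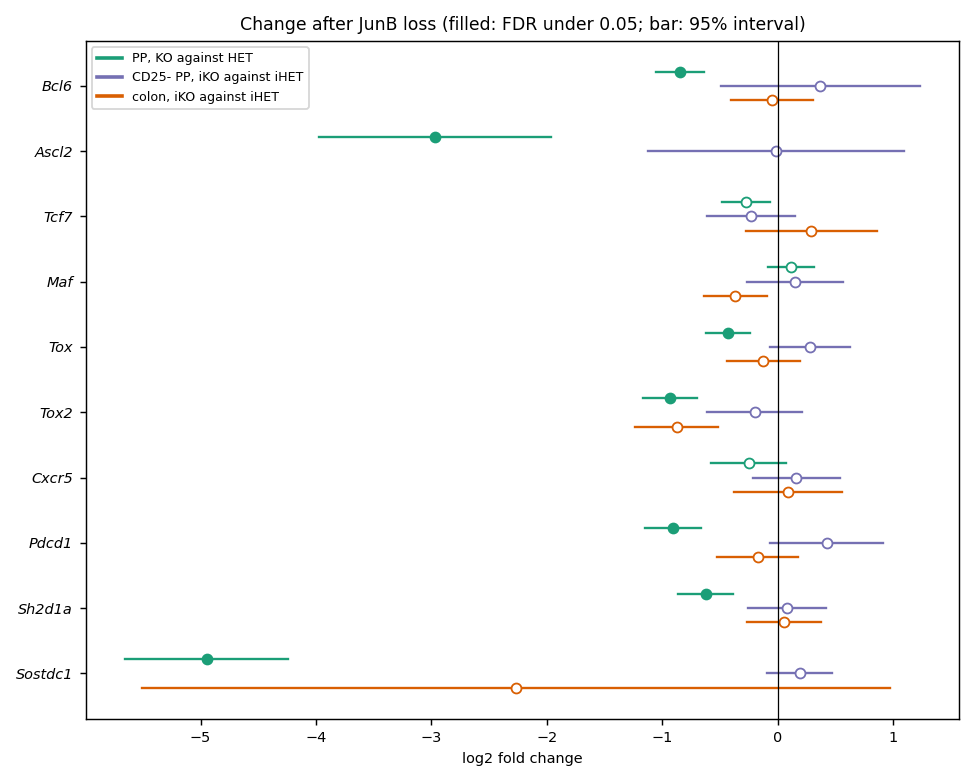
Log2 fold changes of the 10 Tfr genes after JunB loss in PP (KO against HET), CD25- PP and colon Tregs (iKO against iHET); bars are 95% intervals, filled points passed an FDR of 0.05, and Ascl2 was not tested in the colon. Filled points occur for 7 genes in PP KO Tregs and for 0 in either induced comparison by edgeR's quasi-likelihood test.

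Whether the response to constitutive loss differed from that to induced loss was tested as the difference of the 2 log2 fold changes in a single fit of the 8 PP libraries. Sostdc1 passed, with a difference of -5.15 (standard error 0.365, edgeR adjusted p = 0.00557), and it was the only one of the 17109 genes tested that did, 0.00584% of them. The difference was negative for all 10 Tfr genes, beside 53.6% of all genes, and 7 of the 10 had an unadjusted p under 0.05, beside 5.75% of all genes in this direction. These were Sostdc1, Ascl2 (-2.97, interval -4.62 to -1.33), Pdcd1 (-1.34, -1.92 to -0.76), Bcl6 (-1.22, -2.22 to -0.23), Tox2 (-0.74, -1.23 to -0.25), Tox (-0.72, -1.09 to -0.34) and Sh2d1a (-0.71 on the log2 scale, -1.13 to -0.30). Apart from Sostdc1 their edgeR adjusted p lay between 0.167 and 0.493, so a difference was not shown for them at the FDR used. Single libraries mattered for these differences. In fits that each left out 1 library the difference ranged from -1.94 to -0.74 for Bcl6 and from -1.60 to -1.11 for Pdcd1. The value of -1.94 came without CD25- PP iHET replicate 1, which leaves the iHET library with the low Bcl6 level as the only control. Tcf7 (-0.058) and Maf (-0.046 on the log2 scale) had differences close to 0, with intervals of -0.47 to 0.35 and -0.51 to 0.42.

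The call of Sostdc1 held under all 15 alternatives, with an edgeR or DESeq2 adjusted p of at most 0.0294. The 12 B cell genes were lower in this difference as well (12 of 12, 0 past the FDR and 5 at an unadjusted p under 0.05). So were the 10 epithelial genes (10 of 10, 0 past the FDR and 6 at an unadjusted p under 0.05), and the part of both lists in it was not tested. Over all genes 53.6% were lower, and 5.75% were lower at an unadjusted p under 0.05. Constitutive and induced loss cannot be told apart here from the line, the sex, the tamoxifen, the CD25- gate and the sequencing run, which all differ with them.

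**Figure D3:**
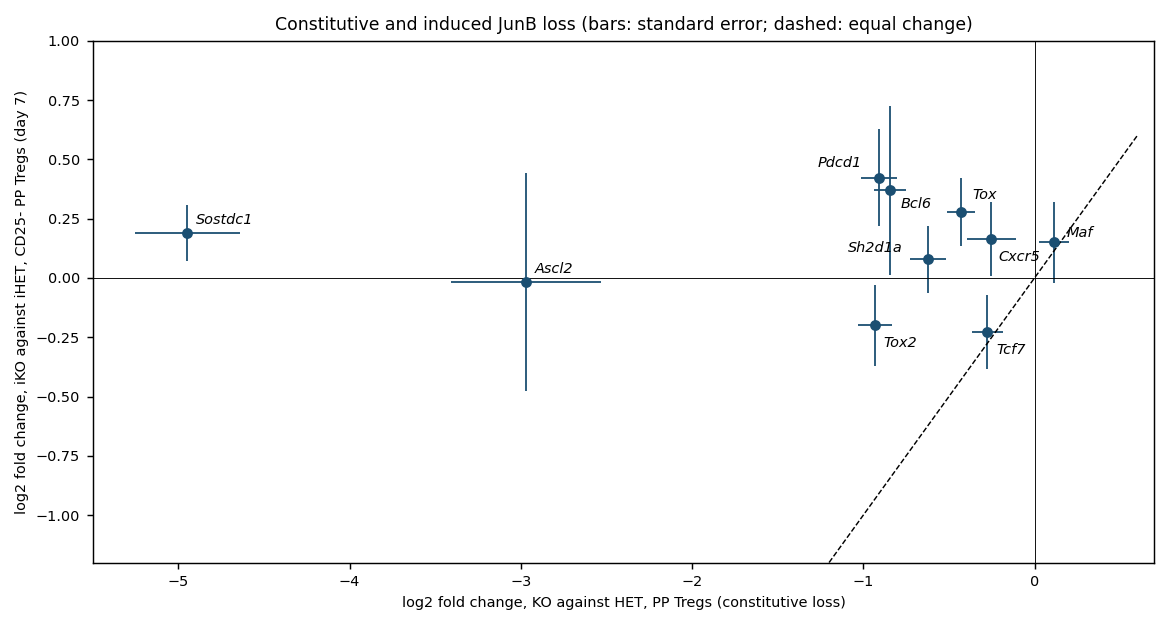
Log2 fold change after constitutive loss (PP, KO against HET, horizontal axis) against that after induced loss (CD25- PP, iKO against iHET, vertical axis) for the 10 Tfr genes; bars are standard errors and the dashed line marks equal change. Sostdc1 lies at -4.95 and 0.19, Ascl2 at -2.97 and -0.017, and Tcf7 and Maf lie near the dashed line.

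The third comparison asked how the genes changed in colonic Tregs after induced loss. Of the 10 genes 9 were tested, since Ascl2 did not pass the filter on low counts, at 2.34, 0.719 and 0.525 CPM in iHET and 1.16, 0.264 and 0 CPM in iKO libraries. None passed the FDR in edgeR's quasi-likelihood test, 2 had an unadjusted p under 0.05 (Tox2 and Maf, both lower), and the likelihood ratio test of the study and DESeq2 called 1 each, Tox2. Over all 16313 genes 0.00613% were called, which is Junb alone, and 2.3% were lower at an unadjusted p under 0.05.

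Tox2 was at 403, 422 and 351 CPM in iHET and 238, 179 and 229 CPM in iKO libraries, and each iKO library lay well below each iHET library. Its log2 fold change was -0.87 (standard error 0.144, unadjusted p = 0.00125, edgeR's quasi-likelihood adjusted p = 0.947). The adjusted p was 0.00103 in edgeR's likelihood ratio test and 1.5e-05 in DESeq2, and 1.5e-05 to 1.000 over all alternatives. Maf was at 300.5, 252 and 251 CPM in iHET and 206, 198 and 219 CPM in iKO libraries, lower without overlap (log2 fold change -0.37, standard error 0.109, edgeR adjusted p = 0.947). Over all genes 4.49% were lower without overlap.

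Sostdc1 was near the bottom of the range in the colon, at 4.26, 5.45 and 4.56 CPM in iHET and 1.72, 0 and 2.57 CPM in iKO libraries, from 120, 182 and 139 and 55, 0 and 81 counts. The groups did not overlap, but the 95% interval of -5.51 to 0.97 on the log2 scale spanned values well below and above 0, and 1 iKO library had no counts. Bcl6, at 58.2, 87.5 and 74.0 CPM in iHET and 62.8, 67.1 and 81.9 CPM in iKO libraries, overlapped between genotypes (interval -0.40 to 0.31). Pdcd1, at 634, 985 and 1087 CPM and 714, 760.1 and 885 CPM, also overlapped (interval -0.52 to 0.18). Tox, with means of 275 ± 26.1 and 253 ± 22.7 CPM (SD, n = 3 each), and Sh2d1a, with means of 43.1 ± 9.02 and 45.6 ± 12.7 CPM (SD, n = 3 each), had log2 fold changes of -0.12 and 0.058 with overlapping groups.

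Tcf7 and Cxcr5 varied more between the libraries of a genotype than between genotypes in the colon. Tcf7 was at 728, 336 and 328 CPM in iHET and 580.3, 443 and 577 CPM in iKO libraries. Cxcr5 was at 63.9, 24.1 and 18.7 CPM in iHET and 54.4, 34.6 and 18.6 CPM in iKO libraries. For both genes the library of the male mouse, replicate 1, was the highest of its genotype, and their log2 fold changes with the replicate number in the model were 0.29 (interval -0.27 to 0.86) and 0.090 (interval -0.38 to 0.56). The sum of the B cell genes was between 522 and 1303 CPM in iHET and between 646 and 832 CPM in iKO libraries, and that of the epithelial genes between 336 and 1235 CPM and between 223 and 2182 CPM; their part in these levels was not tested.

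Of the 24 other follicular genes in the colon 0 passed the FDR by edgeR, 5 were lower and 2 higher at an unadjusted p under 0.05, beside 2.3% and 1.58% of all genes, and the median was -0.0064 beside 0.0048 over all genes. Lower without overlap were 3 of the 24, beside 4.49% of all genes. These were Icos (-0.37), a costimulatory receptor gene, S1pr2 (-0.48), which encodes a receptor that holds cells in the germinal centre, and Il1r2 (-0.82 on the log2 scale). The plot of the gene lists shows these genes beside the opposing genes, of which 0 passed the FDR by edgeR, 2 were lower and 1 higher at an unadjusted p under 0.05.

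**Figure D4:**
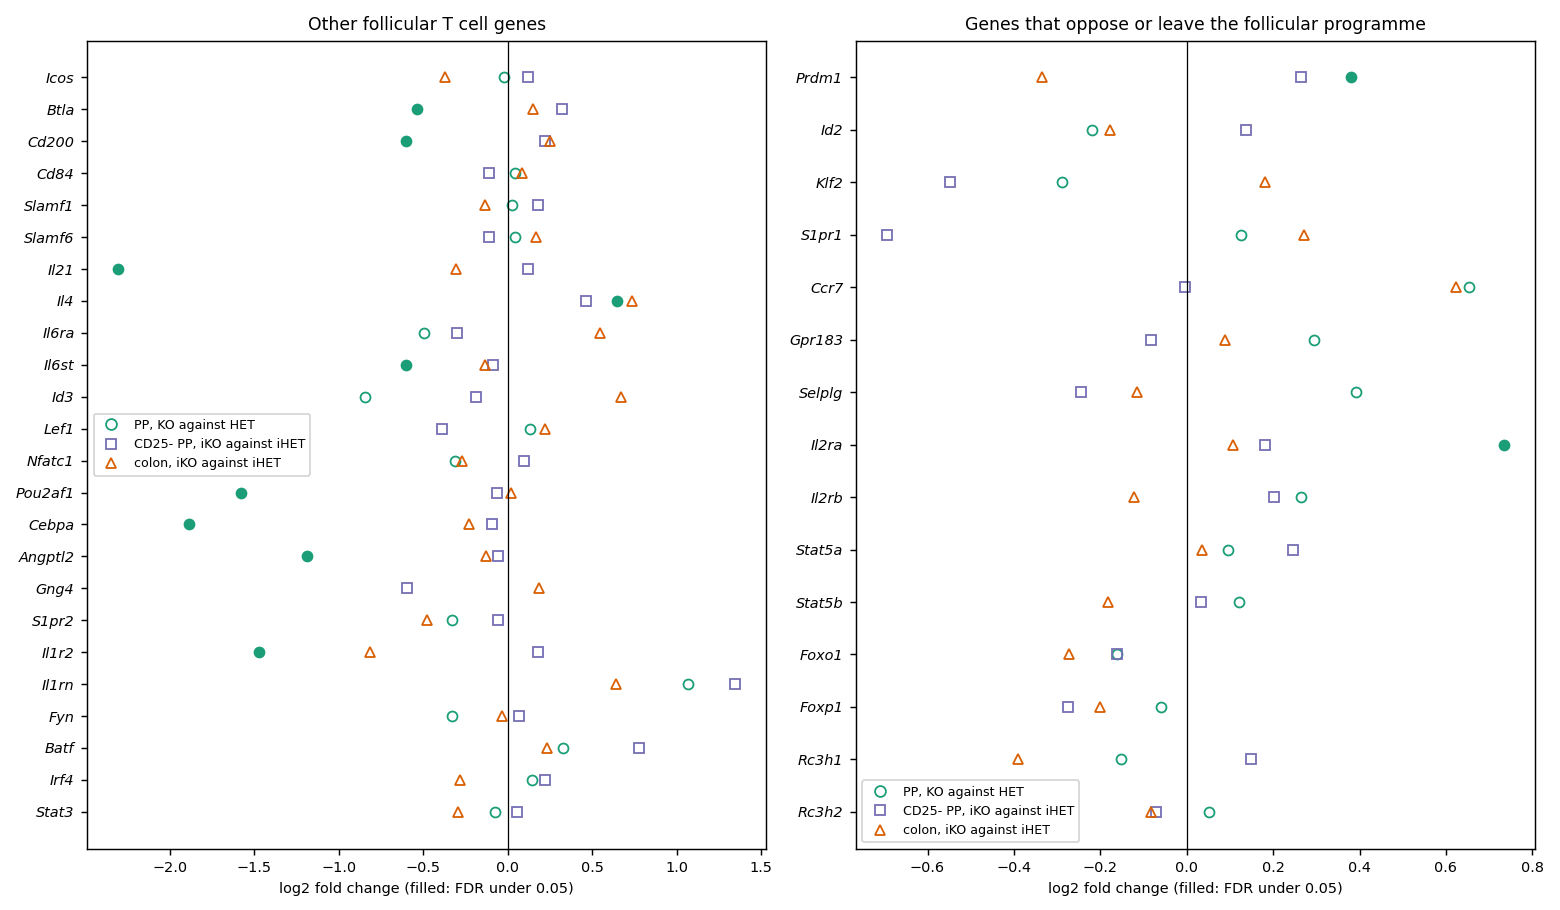
Log2 fold changes of 24 other follicular T cell genes (left) and 15 genes that oppose or leave the follicular programme (right) in PP (circles, KO against HET), CD25- PP (squares) and colon Tregs (triangles, both iKO against iHET); filled symbols passed an FDR of 0.05 and untested genes have no symbol. Filled symbols occur in PP KO Tregs only by edgeR's quasi-likelihood test, 9 on the left and 2 on the right.

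The fourth comparison set CD25- PP Tregs against colonic Tregs of the inducible line, in a single fit of the 10 libraries that also enter the induced comparisons. Organ and CD25- gate cannot be told apart here. In iHET Tregs 4 of the 10 genes were higher in CD25- PP past the FDR (Tcf7, Cxcr5, Sh2d1a and Sostdc1), beside 2.23% of the 18626 genes tested, and in iKO Tregs 6 were (Bcl6, Maf, Tox2, Cxcr5, Sh2d1a and Sostdc1), beside 1.59%. In either genotype 0 of the 10 were lower past the FDR by edgeR or DESeq2, and 0 were lower at an unadjusted p under 0.05 in edgeR; without a filter on low counts Pdcd1 was lower in iHET past the FDR (-0.55 on the log2 scale, edgeR adjusted p = 0.0402). The median log2 ratio of the 10 genes was 1.38 in iHET and 1.38 in iKO Tregs, beside 0.0086 and -0.014 over all genes.

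Sostdc1 had the largest ratio, since it was at 154 and 154 CPM in CD25- PP iHET but at 4.26, 5.45 and 4.56 CPM in colon iHET libraries. The log2 ratio was 5.01 in iHET (95% interval 3.46 to 6.55, edgeR adjusted p = 0.00435) and 6.91 in iKO Tregs (interval 5.20 to 8.62, edgeR adjusted p = 0.00218). Sh2d1a varied little within an organ, with the CD25- PP libraries at 200.1 and 171 CPM in iHET and 184 and 209.9 CPM in iKO, and every colon library at or below 57.2 CPM. Its log2 ratio was 2.11 in iHET (standard error 0.239, edgeR adjusted p = 0.00198) and 2.11 in iKO Tregs (standard error 0.239, edgeR adjusted p = 0.00237). Both genes kept their calls in both genotypes without any 1 of the 10 libraries.

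Cxcr5 was higher in each CD25- PP library than in each colon library, by 2.02 in iHET (standard error 0.511, edgeR adjusted p = 0.0462) and 2.17 in iKO Tregs (standard error 0.512, edgeR adjusted p = 0.0468) on the log2 scale. It lost the call in 7 of 10 fits that left out 1 library in either genotype, while its log2 ratio stayed between 1.71 and 2.76 in iHET and between 1.86 and 2.61 in iKO Tregs. Tcf7 was higher by 1.66 in iHET Tregs (standard error 0.312, edgeR adjusted p = 0.0150), where only the fit without CD25- PP iHET replicate 2 lost the call (edgeR adjusted p = 0.134). In iKO Tregs Tcf7 was not called, at 1.23 on the log2 scale (interval 0.54 to 1.93, edgeR adjusted p = 0.0582).

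Bcl6 was higher in CD25- PP Tregs without overlap in both genotypes. In iHET the log2 ratio of 1.09 did not pass (edgeR adjusted p = 0.0578), and it did without CD25- PP iHET replicate 2, the library with the low Bcl6 level (1.57, edgeR adjusted p = 0.0243). In iKO the log2 ratio of 1.52 passed (standard error 0.298, edgeR adjusted p = 0.0259). Maf (0.80, edgeR adjusted p = 0.0205) and Tox2 (0.75, edgeR adjusted p = 0.0395) also passed in iKO but not in iHET Tregs, where their log2 ratios were 0.28 and 0.083. The iKO calls of Bcl6 and Tox2 were lost without any 1 of the 5 iKO libraries, and that of Maf without any 1 of them other than colon iKO replicate 3. Replicate 1 was the male in each group, and with the replicate number as a block Bcl6 (edgeR adjusted p = 0.0587) and Tox2 (edgeR adjusted p = 0.0601) did not pass in iKO, which left 4 of the 10 called.

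Pdcd1 and Tox did not separate the organs in iHET Tregs. Pdcd1 had a log2 ratio of -0.51 in iHET (interval -1.05 to 0.021) and 0.12 in iKO Tregs (interval -0.41 to 0.64), with overlapping groups in both. Tox was at 0.012 in iHET (interval -0.29 to 0.32) and at 0.42 in iKO Tregs (interval 0.11 to 0.72, edgeR adjusted p = 0.115), where the groups did not overlap. Ascl2 was higher in each CD25- PP library in both genotypes, but its log2 ratios of 2.76 (interval 0.47 to 5.05) and 4.02 (interval 1.59 to 6.45) did not pass. In all, 6 of the 10 genes were higher without overlap in iHET, beside 19.9% of all genes, and 9 were in iKO Tregs, beside 21% of all genes.

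**Figure D5:**
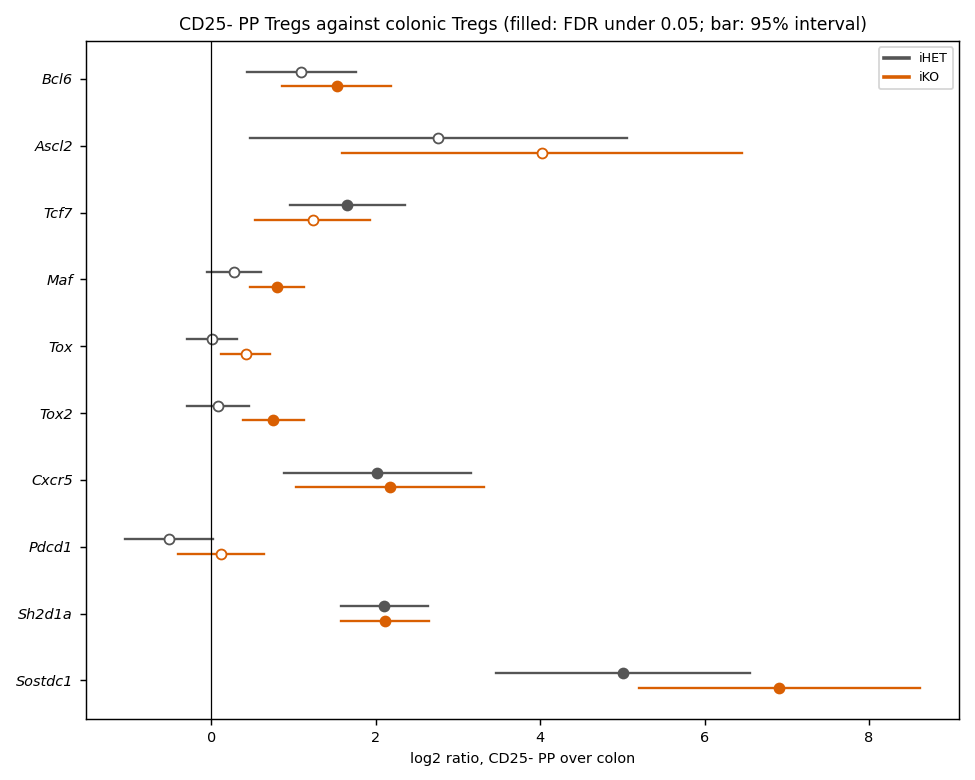
Log2 ratio of CD25- PP to colonic Tregs for the 10 Tfr genes in iHET (grey) and iKO (orange) mice, with 95% intervals; filled points passed an FDR of 0.05. Sostdc1, Sh2d1a and Cxcr5 are filled in both genotypes, Tcf7 in iHET and Bcl6, Maf and Tox2 in iKO Tregs.

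Of the 24 other follicular genes, 9 were higher and 3 lower in CD25- PP than in colonic iHET Tregs past the FDR, beside 2.23% and 4.22% of all genes. In iKO Tregs 7 were higher and 1 lower, beside 1.59% and 2.48% of all genes. Cebpa (2.34 in iHET, 2.51 in iKO), Pou2af1 (2.83, 2.74), Btla (0.94, 1.09), Cd200 (1.38, 1.34), Slamf6 (1.22, 0.95), which encodes a SLAM-family receptor, and Il4 (1.80, 1.56 on the log2 scale) were higher past the FDR in both genotypes, and Irf4 (-1.61, -1.09) was lower in both. Their edgeR adjusted p lay between 0.00198 and 0.0219 or, for Il4, at 0.0242 in iHET, and between 0.00174 and 0.0498 in iKO Tregs. Of the 15 opposing genes 4 were lower in iHET (Il2ra, Il2rb, Prdm1 and Stat5a) and 2 in iKO Tregs (Il2ra and Selplg), with 0 higher in either, beside 4.22% and 2.48% of all genes called lower. Il2ra, the gene of the sorting marker, was at -1.71 and -1.63, which the CD25- gate can set, and is given for completeness.

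Markers of other cells differed between the organs as well. The sum of the myeloid genes was between 62.3 and 109 CPM in CD25- PP iHET and 115 and 344 CPM in colon iHET libraries, with 10 of 10 genes lower in CD25- PP, 3 of them past the FDR. That of the B cell genes was between 1106 and 1155 CPM in CD25- PP iHET and between 522 and 1303 CPM in colon iHET libraries, with 8 of 12 higher, 2 of them past the FDR. In iKO Tregs the B cell sums did not overlap, between 1323 and 1486 CPM in CD25- PP and between 646 and 832 CPM in colon libraries, with 10 of 12 higher, 7 without overlap and 2 past the FDR. In the same genotype 10 of 10 myeloid genes were lower, 2 past the FDR, and 10 of 10 epithelial genes were lower, 7 at an unadjusted p under 0.05 and 0 past the FDR by edgeR (8 of 10 lower and 0 past the FDR in iHET). Over all genes 4.22% were called lower and 2.23% higher in iHET. In iKO these shares were 2.48% and 1.59%, and 21% of all genes were higher without overlap. The part of these other cells in the organ differences of the Tfr genes was not tested.

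Finally, the effect of induced JunB loss was compared between CD25- PP and colon as a difference of log2 fold changes. None of the 10 genes passed the FDR by edgeR, as was the case for all 18626 genes (0%), and 2 had an unadjusted p under 0.05, both with a higher value in CD25- PP, beside 1.5% of all genes. These were Tox2 (difference 0.67, standard error 0.240, unadjusted p = 0.0192 by edgeR) and Maf (difference 0.52, standard error 0.211, unadjusted p = 0.0327 by edgeR). Of the 10, Sostdc1 had the largest difference, 1.90, with a wide 95% interval of -0.23 to 4.03. Its colon iKO libraries varied widely, at 55, 0 and 81 counts. For Bcl6 the difference was 0.43 (interval -0.52 to 1.38) and for Cxcr5 0.15 (interval -1.47 to 1.78), so effects of opposite sign in the organs lie within the error. DESeq2 called 2 genes in all and 0 of the 10.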

How the data were processed

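RNA-seq libraries (50-base reads) of sorted mouse Tregs were deposited by the authors as raw counts per gene, after trimming with Trim Galore, alignment of unique reads to GRCm38 with STAR and counting with featureCounts, without regard to strand. Gene symbols and positions came from GENCODE M21 on GRCm38, which matched 53706 of 53801 and 55394 of 55487 gene IDs. Genes with at least 1 CPM in as many libraries as the smallest group were tested with edgeR 4.0.16 (R 4.3.3, limma 3.58.1; TMM, quasi-likelihood test, prior count 1, Benjamini-Hochberg adjustment over all genes tested, FDR 0.05). The colon fit held the replicate number as a block, to stand for the cage in the methods of the study. That the number follows the cage was assumed. Intervals are 95% intervals of the fit. DESeq2 1.42.0, the tests of the study, other filters and scalings, and fits without each library were alternatives. The fits were tested on simulated data. Figures were drawn with matplotlib 3.10.9 (Python 3.11.15).

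The genes named are the 10 Tfr genes, the check genes and called members of the lists, or members at an unadjusted p under 0.05 where none was called. The 10 genes and the lists were chosen with earlier results of these data known. Replicate libraries differed beyond counting noise. The methods name animals for the colon and samples for PP. The 2 CD25- PP libraries of a genotype came from mice of different sex, so their spread holds differences between mice. For the constitutive line p-values measure the spread between 2 samples per group, which may be technical. With 2 or 3 libraries per group the precision is set by their spread rather than by depth.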

Additional observations from a re-analysis of the deposited data

Results flagged for a closer look

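Sostdc1 changed differently after constitutive and after induced JunB loss in PP Tregs, by a test of the difference itself. The log2 fold change was -4.95 in KO against HET and 0.19 in iKO against iHET Tregs, a difference of -5.15 (standard error 0.365, edgeR's quasi-likelihood adjusted p = 0.00557; 0.00405 to 0.0294 without 1 library). Within the constitutive line the HET libraries were at 121 and 78.6 CPM and the KO libraries at 4.13 and 2.26 CPM, and within the inducible line the iHET libraries were at 154 and 154 CPM and the iKO libraries at 170.1 and 183 CPM. Line, sex, tamoxifen, gate and sequencing run differ together with the kind of loss, and cannot be told apart from it.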

How the results depend on the processing

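The 69 tests of the 10 genes gave 1009 values under the alternatives, of which 975 kept their direction and 894 their call, while 41 lost a call, 40 gained one and 34 turned sign, 32 of these without 1 library. The other 2 were Tox between the organs in iHET Tregs without a filter on low counts (-0.025) and Sh2d1a in the difference of the induced effect between organs with at least 10 counts in every library (-0.0083). Without the filter the median of all genes shifted to 0.20 between the organs in iHET and to -0.15 in the difference between organs, on the log2 scale, so values under that setting are read relative to it. The causes of these changes were not tested.

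Of the 10 genes, other settings moved the number called after constitutive loss to 8 (DESeq2, no filter, or the replicate block), in the colon from 0 to 1 (likelihood ratio test, DESeq2 or no filter), between organs in iHET from 4 to 5 (likelihood ratio test), 6 (DESeq2) or 7 (no filter, 6 higher and Pdcd1 lower), in iKO from 6 to 8 (likelihood ratio test), 9 (DESeq2), 8 (no filter) or 4 (replicate block), in the difference between organs from 0 to 1 (no filter), and in the difference between constitutive and induced loss from 1 to 3 (likelihood ratio test), 4 (DESeq2) or 7 (no filter). Without 1 library the numbers ranged from 3 to 6 after constitutive loss, 0 to 1 after induced loss in CD25- PP, 0 to 0 in the colon, 3 to 4 and 2 to 7 between organs in iHET and iKO, 0 to 0 for the difference between organs, and 1 to 3 for constitutive minus induced loss.

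Of all genes, the number called after constitutive loss moved from 409 to 689 (exact test of the study), 696 (DESeq2) and 1305 (no filter); after induced loss in CD25- PP from 0 to 43, 35 and 232 in the same order, 1 with at least 10 counts and 1 in a fit of the 10 libraries; in the colon from 1 to 25 (likelihood ratio test), 50 (DESeq2) and 24 (no filter); between organs from 1201 to 1988, 2504 and 2848 in iHET and from 758 to 1622, 2233 and 2348 in iKO, in that order; for the difference between organs from 0 to 2, 2 and 282; and for constitutive minus induced loss from 1 to 287, 210 and 621, and 5 with at least 10 counts. Without 1 library these numbers ranged from 54 to 313, 0 to 128, 0 to 8, 137 to 1700, 74 to 1096, 0 to 0 and 1 to 84, in the order above.

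Log2 fold changes that turned sign without 1 library, all of genes not called with all libraries, ranged in CD25- PP from -0.11 to 1.10 for Bcl6, -0.66 to 0.49 for Ascl2, -0.059 to 0.40 for Maf, -0.40 to 0.030 for Tox2 and -0.034 to 0.21 for Sh2d1a. In the colon they ranged from -0.14 to 0.14 for Bcl6, -0.25 to 0.018 for Tox, -0.13 to 0.26 for Cxcr5 and -0.0039 to 0.16 for Sh2d1a. Between organs they ranged from -0.12 to 0.11 for Tox and -0.16 to 0.27 for Tox2 in iHET, and -0.060 to 0.26 for Pdcd1 in iKO. In the difference between organs the ranges were -0.050 to 1.16 for Bcl6, -0.57 to 0.59 for Cxcr5 and -0.19 to 0.20 for Sh2d1a, and for constitutive minus induced loss -0.19 to 0.10 for Tcf7 and -0.27 to 0.16 for Maf. A library left alone in its group was assumed to vary like the others.

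Same-numbered libraries of the inducible line shared sex and Cre copies. In the colon they were assumed to share the cage as well. The deviations of same-numbered libraries from their group means correlated weakly, at 0.107 in PP, 0.0292 in CD25- PP, and 0.102, 0.247 and -0.028 in the colon. With the number as a replicate block 1015 genes were called after constitutive loss and 8 of the 10, 430 between organs in iKO and 4 of the 10, and 0 after induced loss in CD25- PP; without the block in the colon 1 was called, and 0 of the 9 tested.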

Other observations

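Over the 10 libraries of the inducible line, genes whose log2 CPM closely followed Bcl6, among 10648 genes, included Slc12a2 (Pearson r = 0.955), Cd40lg (0.955), Trmt61b (0.954) and Spag4 (0.940). Cd40lg encodes CD40 ligand, a helper signal from T to B cells, and Slc12a2 an ion cotransporter. These 4 were higher in each CD25- PP library than in each colon library of the same genotype; the 10 points share organ, gate and genotype, and the correlations are given as a description. Among the Tfr genes themselves, r to Bcl6 was 0.871 for Sh2d1a, 0.832 for Maf, 0.810 for Sostdc1, 0.778 for Tox, 0.725 for Cxcr5, 0.689 for Tcf7, 0.614 for Ascl2, 0.500 for Tox2 and 0.0863 for Pdcd1. In PP KO against HET Tregs, Slc12a2 (-0.44) and Cd40lg (-0.54 on the log2 scale) were lower without overlap but not past the FDR (edgeR adjusted p = 0.335 and 0.132), beside 21.8% of all genes that were lower without overlap.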
